A study of Homo sapiens with 10 samples.

Results

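YAP and TEAD target genes were described here as 10 genes taken from the long RNA tables by symbol: CYR61, CTGF, ANKRD1, AMOTL2, AXL, AJUBA, LATS2, YAP1, WWTR1 and TEAD1. All 10 were found, each on 1 row, among 55771 genes in the tables, and all 10 were among the 18402 genes tested. The labels give the cells of all libraries as BEAS-2B, a line of human bronchial epithelial cells immortalised with viral genes. They describe growth in LHC9 medium with serum under G418 selection. Stable cells carried either an empty vector (2 libraries) or a TAF1C vector (3 libraries), both driven by what the labels call the pCMV6 promoter. TAF1C is a subunit of SL1, the complex that places RNA polymerase I on ribosomal RNA genes. The labels do not say whether the cells were clones or pools, or whether libraries of a group came from separate cultures. Each p therefore sets a group difference against the spread between these libraries, and how far it holds beyond them is not known.

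YAP1 and its paralog WWTR1 (TAZ) are coactivators without a DNA-binding domain of their own, and they act on genes through the TEAD transcription factors. In the Hippo pathway, the kinases STK3 and STK4 activate LATS1 and LATS2, which phosphorylate YAP1 and WWTR1 and hold them out of the nucleus. Spread cells, stiff matrix and growth factors favour the nuclear form, in which YAP1 and WWTR1 turn on matricellular proteins, regulators of the cytoskeleton and several of their own inhibitors. RNA levels do not show where the YAP1 and WWTR1 proteins are or whether they are phosphorylated.

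TEAD factors recognise the letters GGAATG, or CATTCC on the other strand. The promoters are shown first because most of the 8 genes with a promoter window held this motif in at least 1 window. Promoter windows of RefSeq (GRCh38.p14), 250 bases before to 50 bases after each annotated start, were held for 8 of the 10 genes. The motif stood in at least 1 window of 7 of these 8 genes (7 of 12 windows), against 14.0% of all 35116 windows and 16.7% of the 27305 genes with a window. The 10 genes were chosen as known targets or, like YAP1, WWTR1 and TEAD1, as parts of the pathway itself, so this is a description. In the wider lists described below, 9 of 16 conserved YAP targets with a window held the letters (9 of 18 windows). So did 9 of 35 Hippo pathway genes (9 of 50 windows) and 8 of 17 actin cytoskeleton genes (9 of 44 windows). CTGF, listed by RefSeq as CCN2, had 3 matches in its window, and 0.128% of all windows had 3 or more. ANKRD1 had 2 matches and YAP1 had 1. The 250 bases before the start of these 3 genes are given 5′ to 3′ on the gene's strand, with the TEAD letters in capitals. They lie at chr6:131951373-131951622 (minus strand) for CTGF, chr10:90921088-90921337 (minus strand) for ANKRD1 and chr11:102110197-102110446 (plus strand) for YAP1.
CTGF: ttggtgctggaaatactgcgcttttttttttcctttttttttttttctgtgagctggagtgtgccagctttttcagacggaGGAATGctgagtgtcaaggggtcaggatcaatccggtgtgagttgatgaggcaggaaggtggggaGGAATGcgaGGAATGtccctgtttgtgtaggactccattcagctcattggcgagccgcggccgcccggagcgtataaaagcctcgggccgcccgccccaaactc
ANKRD1: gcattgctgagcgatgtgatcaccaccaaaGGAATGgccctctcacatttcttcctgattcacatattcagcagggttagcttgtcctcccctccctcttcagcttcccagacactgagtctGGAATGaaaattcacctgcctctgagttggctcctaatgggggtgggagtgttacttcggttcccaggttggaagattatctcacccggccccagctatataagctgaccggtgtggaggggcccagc
YAP1: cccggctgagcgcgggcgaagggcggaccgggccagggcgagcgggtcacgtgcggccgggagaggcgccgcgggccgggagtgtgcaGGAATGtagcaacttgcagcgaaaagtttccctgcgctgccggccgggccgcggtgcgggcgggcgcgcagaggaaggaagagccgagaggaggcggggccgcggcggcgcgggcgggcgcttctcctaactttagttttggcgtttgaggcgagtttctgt

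The other 4 matches are shown in 30 bases each, since 3 of them lie before the second of 2 annotated starts, inside the gene, and that of LATS2 lies just after its start. Their places are chr3:134374499-134374528 (minus strand) for AMOTL2, chr14:22976884-22976913 (minus strand) for AJUBA, chr19:41226531-41226560 (plus strand) for AXL and chr13:21061560-21061589 (minus strand) for LATS2. Neither window of WWTR1 held the letters.
AMOTL2: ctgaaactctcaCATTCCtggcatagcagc
AJUBA: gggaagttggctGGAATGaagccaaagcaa
AXL: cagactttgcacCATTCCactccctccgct
LATS2: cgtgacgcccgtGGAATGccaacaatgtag

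The same windows were searched on both strands for the AP-1 motif TGANTCA, since AP-1 often binds beside TEAD, and for the SRF CArG box, the site of another factor that reads the state of actin. Ends of different motifs may overlap. TGANTCA stood once, in the ANKRD1 window (7.71% of all windows hold it), and the CArG box in none of the 12 (1.29% of all windows). A match is no proof of binding, and no match covers only these letters in these windows.

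**Figure D1:**
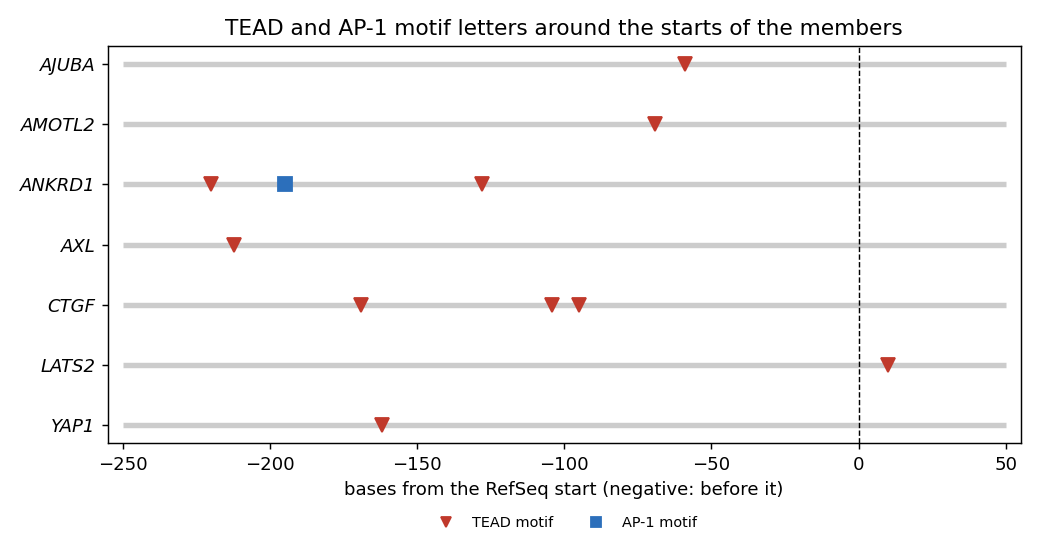
Places of the TEAD motif (red triangles) and the AP-1 motif (blue square) in the promoter windows that hold either, in bases from the RefSeq start (dashed line). CTGF has 3 TEAD matches at -169, -104 and -95, ANKRD1 has 2 at -220 and -128, and the match of LATS2 at 10 is the only one after the start.

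Summed over all genes, the empty vector libraries held 22809601 and 28476151 counts, and those labelled TAF1C 37533366, 36481548 and 34212883. The TAF1C transcript measured 64.4 and 77.7 CPM (counts scaled to a common library size, with TMM factors) with the empty vector and 64.0, 59.0 and 67.0 CPM in the other group. These ranges overlap and give no rise of the transcript, so the second group is named by its label throughout. The 20 photoreceptor markers summed to 2378 and 1659 CPM with the empty vector and to 34.8, 23.8 and 29.4 CPM in the libraries labelled TAF1C. In the same order, 20, 18, 13, 6 and 11 of these 20 reached 1 CPM. The 13 neuronal markers summed to 959 and 698 CPM, then 11.2, 12.5 and 12.9 CPM, with 12, 10, 6, 4 and 5 of 13 at 1 CPM. The neuronal marker STMN2 was at 0 in empty vector library 2, and INSM1 was at 0 in TAF1C library 3. Of 10 epithelial markers, the keratin KRT8 was at 101 and 96.8 CPM and at 348, 318 and 330.2 CPM, whereas EPCAM was under 1 CPM in each library labelled TAF1C and the basal markers KRT5 and TP63 were under 2 CPM in all 5. The epithelial list summed to 172 and 135 CPM and to 445, 414 and 428 CPM, with KRT8 the largest part in every library. KRT18 and LAMB3 were also higher in the libraries labelled TAF1C. ITGB4 was lower there, at 23.1 and 17.4 CPM with the empty vector and at 8.98, 8.79 and 9.37 CPM in the others. EPCAM was at 14.7 and 1.10 CPM with the empty vector. Fibroblast markers summed to 107 and 48.6 CPM and to 69.1, 53.1 and 58.4 CPM. These differences lie along the same split as each result that follows, and their part in the results was not tested. The labels name the same cell line for both groups, and whether both held the same cells was not tested. In bulk RNA, fewer cells of a type and less RNA per cell cannot be told apart.

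Between the groups, 8 of the 10 genes rose in the libraries labelled TAF1C, 0 fell and 2, AMOTL2 and TEAD1, did not pass the test (edgeR, adjusted p under 0.05). Among all genes tested, 15.9% were raised and 22.6% lowered. In 9 of the 10 genes, every library labelled TAF1C stood above both empty vector libraries, against 29.8% of all genes, the exception being AMOTL2. The median log2 fold change of the 10 was 0.97, beside -0.10 for all genes tested. Scaling by library totals moved the median of all genes to -0.33 and that of the 10 to 0.76, with 8 of the 10 raised (12.3% of all genes raised, 27.3% lowered). Over the 13 alternatives the median of the 10 lay between 0.76 and 1.07. DESeq2 called 9 of the 10 raised (20.0% of all genes raised, 23.9% lowered). The count was 7 without TAF1C replicate 1, 2 or 3 (5.84%, 6.48% and 5.94% of all genes raised, and 11.3%, 10.7% and 11.1% lowered). It was 9, with AMOTL2 lowered, without empty vector replicate 1 (29.0% of all genes raised, 29.5% lowered) and 10 without empty vector replicate 2 (35.8% raised, 34.0% lowered). The genes were chosen with results of these data known, so no p is given for the group.

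**Figure D2:**
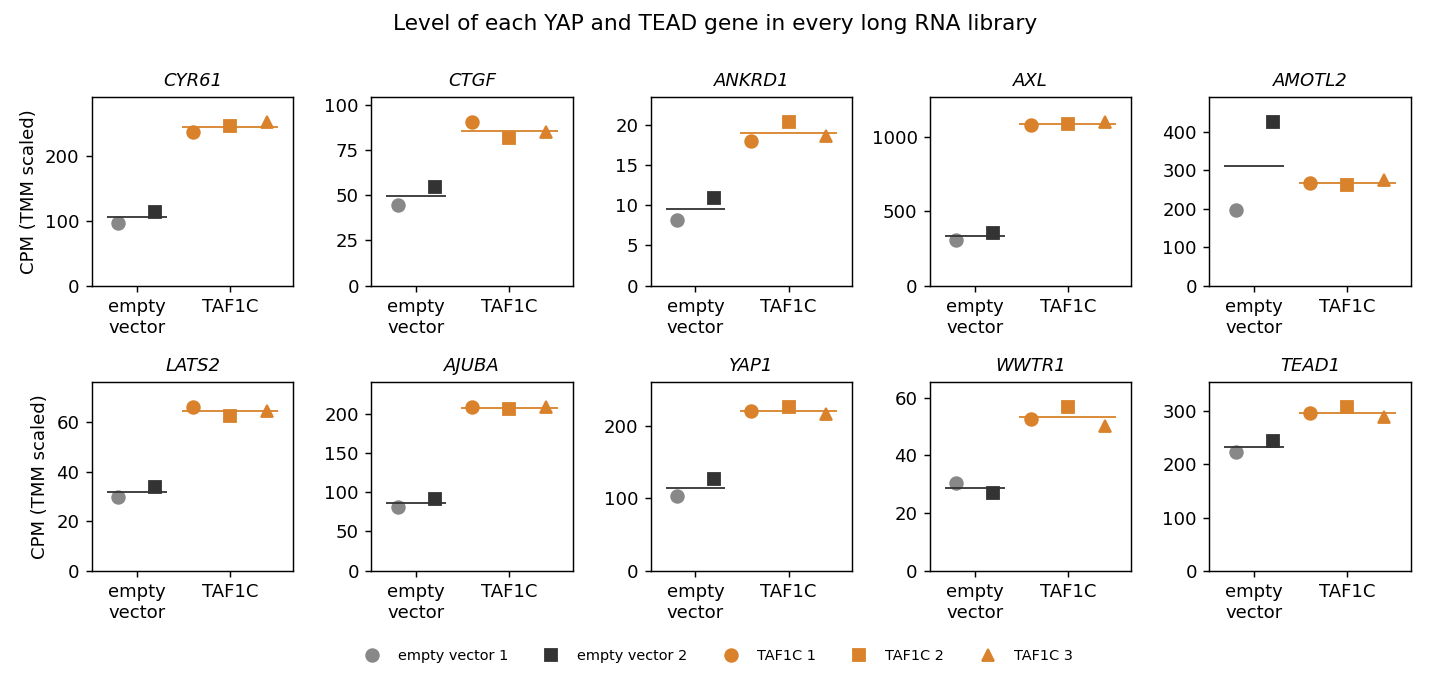
Level of each of the 10 genes in CPM (TMM scaled, linear axes from 0) in the 2 empty vector libraries (grey and black) and the 3 libraries labelled TAF1C (orange). Horizontal lines are group means. In all panels but that of AMOTL2 the orange points lie above the grey and black ones, and the orange points of AMOTL2 lie between its empty vector values of 197 and 426 CPM.

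CYR61 (CCN1; ENSG00000142871) encodes a secreted matricellular protein that binds integrins and is among the first genes to respond to YAP1. Its empty vector levels of 97.1 and 114 CPM stood against 237, 247 and 253 CPM in the other group. The groups stood well apart, with means of 106 ± 12.3 CPM (SD, n = 2) and 246 ± 8.004 CPM (SD, n = 3), 2.32-fold higher. On the log2 scale CYR61 rose by 1.22 ± 0.13 (SE; edgeR adjusted p = 0.00180).

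CTGF (CCN2; ENSG00000118523), the related secreted protein known from scarring tissue, was at 44.8 and 54.5 CPM and at 90.5, 81.5 and 84.8 CPM. Its means of 49.7 ± 6.83 CPM (SD, n = 2) and 85.6 ± 4.58 CPM (SD, n = 3) gave a 1.72-fold rise (log2 0.79 ± 0.13 SE, edgeR adjusted p = 0.00767). Counts of CYR61 were 2.17 and 2.10 times those of CTGF with the empty vector and 2.62, 3.03 and 2.98 times in the libraries labelled TAF1C. This ratio of 2 genes in 1 library does not depend on scaling, and its change gave an exact two-sided permutation p = 0.2, the smallest that 2 against 3 libraries allow.

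ANKRD1 (ENSG00000148677), a muscle and stress protein of the nucleus and the sarcomere, had the fewest counts of the 10, from 221 to 692. It was at 8.21 and 10.9 CPM with the empty vector and at 17.96, 20.4 and 18.6 CPM in the others, a 1.99-fold difference with no overlap. On the log2 scale ANKRD1 rose by 0.99 ± 0.20 (SE; edgeR adjusted p = 0.0134). This call was lost without any 1 of the 3 libraries labelled TAF1C, with adjusted p between 0.0625 and 0.0733 and log2 fold changes between 0.94 and 1.03.

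AXL (ENSG00000167601), a receptor tyrosine kinase of the TAM family that drives migration, showed the largest rise of the 10. Its 310.7 and 353 CPM with the empty vector stood against 1079.9, 1088 and 1103 CPM. The 3 libraries labelled TAF1C differed by 1.02-fold at most, while the group means differed 3.28-fold (log2 1.72 ± 0.16 SE, edgeR adjusted p = 0.00114). Of the 4 other TAM receptors and ligands, GAS6, the ligand of AXL, rose 1.81-fold (51.5 and 51.3 CPM, then 96.4, 83.8 and 99.6 CPM, edgeR adjusted p = 0.00456). The receptor TYRO3 rose 1.99-fold (adjusted p = 0.00313). MERTK, the receptor by which phagocytes and retinal pigment cells take up debris, fell by 2.02 on the log2 scale, from 5.43 and 10.9 CPM to 2.40, 1.59 and 2.07 CPM (adjusted p = 0.0120). The MERTK call was lost without TAF1C replicate 2 (adjusted p = 0.0649) or 3 (0.0599). PROS1, another ligand, was at 15.3 and 15.9 CPM and at 15.7, 16.4 and 12.8 CPM (adjusted p = 0.831). Both the receptor AXL and its ligand GAS6 were therefore higher in every library labelled TAF1C.

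Of the 2 members that restrain YAP1, LATS2 was raised and AMOTL2 did not pass the test, and AJUBA, which restrains LATS kinases, was raised. LATS2 (ENSG00000150457), the kinase that phosphorylates YAP1 and is itself a YAP1 target, was at 29.8 and 33.7 CPM and at 66.2, 62.5 and 64.3 CPM. It rose 2.02-fold (log2 1.02 ± 0.12 SE, edgeR adjusted p = 0.00235). Its paralog LATS1, the other kinase acting on YAP1, moved the other way, from 61.7 and 48.6 CPM to 36.5, 36.3 and 34.5 CPM. The fall of LATS1 by 0.62 ± 0.14 (SE) on the log2 scale had an edgeR adjusted p = 0.0189. This call was lost without any 1 library labelled TAF1C (adjusted p 0.0837 to 0.0983), with no filter on low counts (0.155) and with the replicate number as a block (0.137). Counts of LATS2 were 0.483 and 0.695 times those of LATS1 with the empty vector and 1.81, 1.72 and 1.87 times in the libraries labelled TAF1C, with an exact permutation p = 0.2, again the smallest possible.

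AJUBA (ENSG00000129474), a LIM protein of cell junctions that binds LATS kinases and limits their activity, was at 80.6 and 90.9 CPM and at 208, 206 and 209 CPM. It rose 2.42-fold (log2 1.28 ± 0.12 SE, edgeR adjusted p = 0.00114), the steadiest of the 10 among the libraries labelled TAF1C. Its family members LIMD1 and WTIP rose 1.64-fold and 2.03-fold (edgeR adjusted p = 0.00595 and 0.00713).

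AMOTL2 (ENSG00000114019), an angiomotin that holds YAP1 in the cytoplasm, was at 197 CPM in empty vector library 1 and at 426 CPM in library 2, with 266, 260.5 and 274.5 CPM between them in the libraries labelled TAF1C. The empty vector libraries thus differed 2.17-fold for this gene, against 0.891 to 1.32 for the ratio of library 2 to library 1 in the other 9. Against both, the log2 difference of AMOTL2 was -0.22 ± 0.31 (SE; edgeR adjusted p = 0.608). Its direction was set by which empty vector library was used: against library 1 alone the log2 fold change was 0.41 (adjusted p = 3.04e-05) and against library 2 alone -0.74 (adjusted p = 2.53e-10). With 1 control, the spread in such a fit comes from the other group, and the lone library is assumed to vary like it. The other angiomotins did not pass the test: AMOTL1 was at 161 and 157 CPM and at 147, 151 and 145 CPM, and AMOT at 6.91 and 1.74 CPM and at 1.83, 1.53 and 1.14 CPM.

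**Figure D3:**
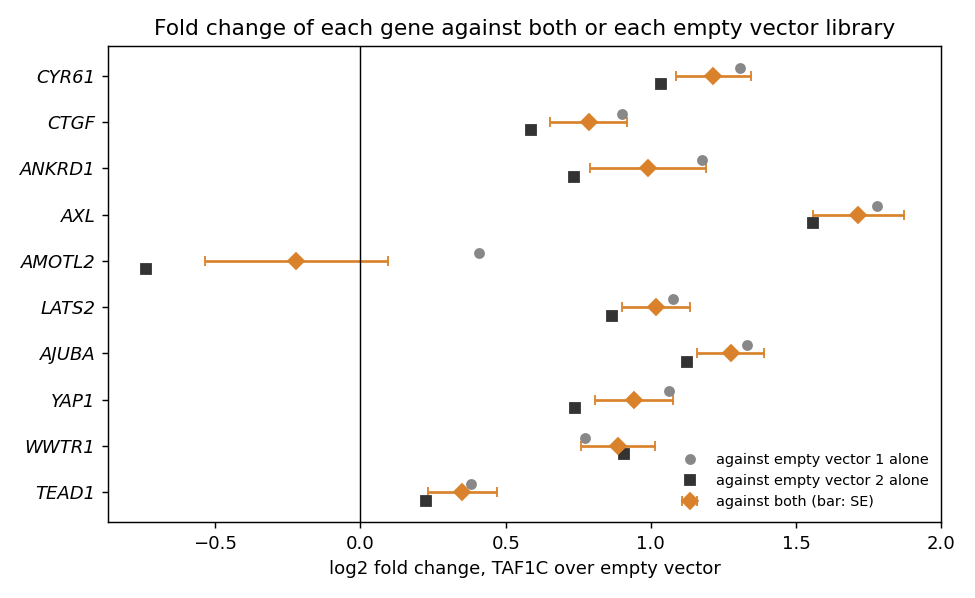
Log2 fold change of the 10 genes, with the libraries labelled TAF1C set against both empty vector libraries (orange diamonds, bars are the SE), against library 1 alone (grey circles) or library 2 alone (black squares). All values but those of AMOTL2 lie to the right of 0, and AMOTL2 lies at 0.41 and -0.74 with each library alone.

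Both coactivators rose. YAP1 (ENSG00000137693) was at 103 and 126 CPM with the empty vector and at 219, 226 and 216 CPM in the libraries labelled TAF1C. With means of 115 ± 16.3 CPM (SD, n = 2) and 220.3 ± 4.95 CPM (SD, n = 3), it was 1.92-fold higher (log2 0.94 ± 0.13 SE, edgeR adjusted p = 0.00449). WWTR1 (ENSG00000018408) was at 30.4 and 27.0 CPM and at 52.6, 56.8 and 50.002 CPM, 1.85-fold higher (log2 0.89 ± 0.13 SE, adjusted p = 0.00467). Counts of YAP1 were 3.40 and 4.66 times those of WWTR1 with the empty vector and 4.17, 3.97 and 4.32 times in the others, so the ranges of this ratio overlapped (exact permutation p = 0.8). The antisense transcript WWTR1-AS1 and the intronic WWTR1-IT1 reached at most 1.31 CPM and the copies YAP1P1 and YAP1P2 at most 0.260 CPM, all far under the levels of YAP1 and WWTR1.

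TEAD1 (ENSG00000187079), the DNA-binding partner, was at 223 and 243 CPM and at 296, 308 and 288 CPM. The 1.28-fold difference (log2 0.35 ± 0.12 SE) did not pass with edgeR (adjusted p = 0.0628), although the groups did not overlap. TEAD1 passed under 3 of the 13 alternatives: with DESeq2 (adjusted p = 0.0162) and against each empty vector library alone (0.0115 without replicate 1 and 6.07e-05 without replicate 2). Under the others the adjusted p ran from 0.0556 to 0.408, and with library totals the log2 difference was 0.13 (adjusted p = 0.280). The edgeR result does not show that TEAD1 was at an equal level in the groups. Among the other TEAD genes, TEAD3 fell by 1.42 ± 0.21 (SE) on the log2 scale, from 32.4 and 48.8 CPM to 14.9, 14.0 and 16.7 CPM (edgeR adjusted p = 0.00507). Counts of TEAD1 were 6.89 and 4.98 times those of TEAD3 with the empty vector and 19.9, 22.0 and 17.3 times in the libraries labelled TAF1C (exact permutation p = 0.2, the smallest possible). TEAD4 was at 22.7 and 36.5 CPM and at 44.0, 40.7 and 46.5 CPM (log2 0.56, edgeR adjusted p = 0.0938). Its log2 difference was 0.20 without empty vector replicate 1 (adjusted p = 0.115) and 0.91 without replicate 2 (6.80e-08). TEAD2 was at 8.03 and 38.5 CPM and at 12.9, 13.0 and 13.0 CPM, so that, as for AMOTL2, the libraries labelled TAF1C lay between 2 distant empty vector values. Its edgeR adjusted p was 0.298 against both, with a log2 fold change of 0.66 against library 1 alone and -1.64 against library 2 alone.

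The vestigial-like proteins compete with YAP1 for TEAD. VGLL4, a repressor of TEAD-dependent transcription, fell by 1.14 ± 0.18 (SE) on the log2 scale, from 34.9 and 25.9 CPM to 12.9, 13.6 and 14.9 CPM (edgeR adjusted p = 0.00649). Counts of YAP1 were 2.95 and 4.87 times those of VGLL4 with the empty vector and 17.0, 16.6 and 14.5 times in the others (exact permutation p = 0.2, the smallest possible). VGLL3 rose 2.04-fold, from 36.6 and 39.1 CPM to 75.3, 81.1 and 75.6 CPM (edgeR adjusted p = 0.00180). VGLL1 and VGLL2 were under 1 CPM in every library and were not tested. These 5 gene pairs were chosen after their values were seen.

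In the Hippo pathway list of 40 genes, which includes 6 of the 10, 12 of 38 tested genes rose and 5 fell. Outside the 10, 8 of 32 rose and 5 fell, with a median log2 fold change of 0.12, beside 15.9% raised and 22.6% lowered among all genes. FRMD6, a junction protein upstream of LATS that activates the pathway, rose 2.36-fold (52.7 and 66.3 CPM, then 141, 142 and 139 CPM, edgeR adjusted p = 0.00201). The kinase STK4 rose 1.60-fold (adjusted p = 0.0255) and PTPN14, a phosphatase that binds YAP1 and is also a target, 2.31-fold (0.00136). The 5 lowered genes were TEAD3, VGLL4, LATS1 and the upstream kinases MAP4K3 and MAP4K5 (edgeR adjusted p = 0.0166 and 0.0231). The last 3 lost the threshold without any 1 library labelled TAF1C (adjusted p 0.0710 to 0.105), with no filter (0.155 to 0.297) and with the replicate block (0.120 to 0.181). MAP4K3 and MAP4K5 also lost it with filterByExpr (0.0853 and 0.0869). Without empty vector replicate 2, 24 pathway genes were raised and 11 lowered, beside 35.8% and 34.0% of all genes. Without replicate 1, 8 were lowered, beside 29.5% of all genes, and without each library labelled TAF1C 2 were lowered, beside 10.7% to 11.3%.

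The list of conserved YAP targets holds 22 genes, of which 6 are among the 10. In it 18 genes rose, 1 fell and 3 did not pass, and outside the 10 these numbers were 13, 1 and 2 of 16 with a median log2 fold change of 0.97. Among all genes 15.9% were raised and 22.6% lowered. With 1 library left out, 13 to 20 of the list rose, while 5.84% to 35.8% of all genes did. F3, the tissue factor that starts clotting, rose 4.08-fold, from 14.7 and 11.6 CPM to 50.8, 55.9 and 53.7 CPM (edgeR adjusted p = 0.000742). NT5E, the ectoenzyme CD73 that makes adenosine, rose 2.79-fold (24.3 and 25.6 CPM, then 69.3, 72.9 and 66.7 CPM, adjusted p = 0.000717). FJX1, a secreted protein related to fly four-jointed, rose 2.87-fold (0.00186) and MYOF, a membrane repair protein, 2.60-fold (0.000817). NUAK2, a kinase acting on actomyosin, rose 2.40-fold (0.00841), with its call lost without TAF1C replicate 1 (0.0525) or 3 (0.0510).

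The exceptions in this list differed in kind. FOXF2, a transcription factor of mesenchyme, was the lowered gene, at 1.152 and 7.71 CPM with the empty vector and at 0.143, 0 and 0.278 CPM in the others (edgeR adjusted p = 0.0235). Its call was lost without any 1 library labelled TAF1C (0.0631 to 0.0936), and it was under the filter without either empty vector library. GADD45A, a DNA damage gene, was at 20.5 and 41.2 CPM and at 34.5, 34.8 and 31.4 CPM (adjusted p = 0.768), between the empty vector libraries as AMOTL2 was. IGFBP3, which binds insulin-like growth factors, was at 33.3 and 31.5 CPM and at 36.3, 38.5 and 38.6 CPM (adjusted p = 0.176).

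**Figure D4:**
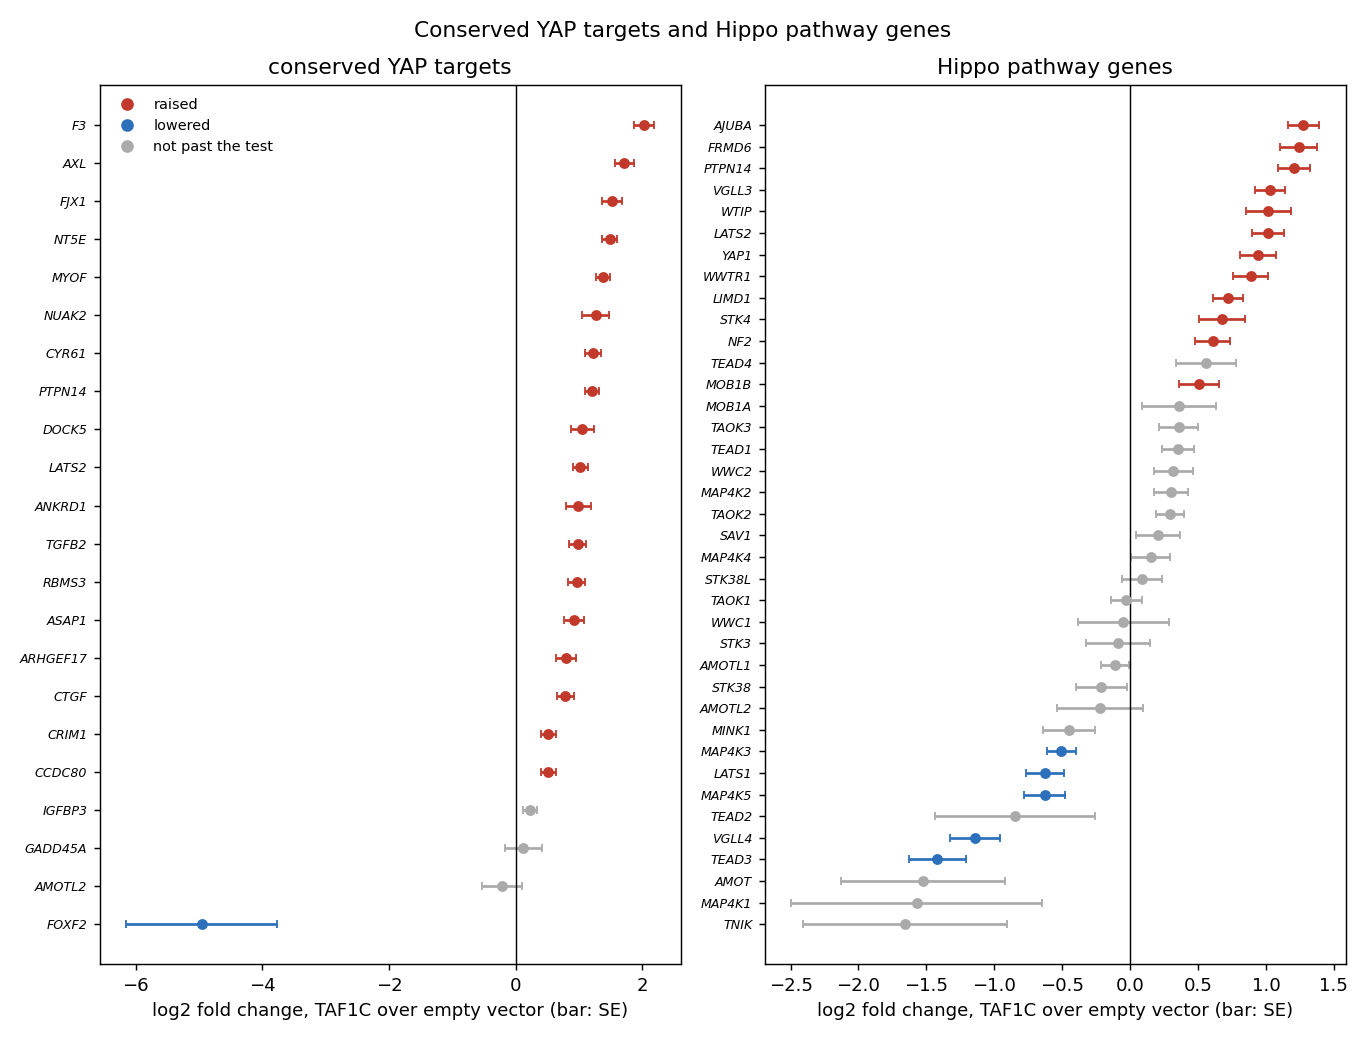
Log2 fold change of each tested gene of the conserved YAP targets (left) and the Hippo pathway list (right), with bars for the SE. Red marks raised, blue lowered and grey genes that did not pass the test. In the left panel 18 of 22 points are red and FOXF2 alone is blue, and in the right panel 12 of 38 are red and 5 are blue.

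Likeness of pattern was measured as the Euclidean distance of centred log2 CPM over the 5 libraries, among 12133 other genes with a mean of at least 5 CPM. The nearest to CYR61 were DRAM1 (distance 0.0499), FBLIM1 (0.0712) and GSTK1 (0.0730), and DRAM1 was at 8.55 and 10.1 CPM and at 21.6, 21.4 and 22.2 CPM. The nearest to CTGF were CLPTM1L (0.0388), POR (0.0535) and MAVS (0.0618). Those nearest to YAP1 were FDX1 (0.0265), XPNPEP3 (0.0479) and TGFB2 (0.0513), and TGFB2 is also one of the conserved targets. TEAD1 was nearest to NUMB (0.0405), DDAH1 (0.0409) and KLHL11 (0.0462). The 5 libraries fall into 2 groups, so genes with a like difference between the groups lie close by this measure.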

How the data were processed

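The mirVana kit gave the RNA, which was depleted of ribosomal RNA and made into NEBNext Ultra libraries, per the labels' protocols. The submitters' processing notes name Cufflinks 2.2.1, HISAT2, DESeq2, Bowtie2 2.2.4, Trimmomatic 0.36 and the build hg19, without roles. The annotation, and whether counting used strand, are not given in the sources used here. The deposited tables hold the authors' raw counts for 57773 Ensembl genes. Rows of 1 symbol (236 symbols) were summed. Genes reaching 1 CPM in 2 or more libraries entered edgeR 4.0.16 (R 4.3.3; glmQLFit and glmQLFTest), with TMM scaling and no covariate, two-sided, and Benjamini-Hochberg adjustment over all genes tested at 0.05. The SE is the log2 fold change divided by the square root of F. The script was tested on simulated data. Alternatives were other scalings and filters, DESeq2 1.42.0, unsummed rows, a replicate block and leaving out each library. Fit values apart, levels are compared mainly between libraries, since transcript lengths are not used here. Where counts or CPM of different genes are set side by side, as in the ratios, they are not corrected for length.

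The 10 genes and the lists were chosen with earlier results of these data known. The text names all 10, the TEAD genes, and from each list up to 6 changed genes in each direction with the largest folds, plus LIMD1, STK4 and genes that did not pass, chosen after their values were seen. Small RNA tables were not used. Of the marker genes, 1 endothelial marker had no row that matched by name. Ratios of 2 genes were tested by exact permutation with scipy 1.17.1, and 5 were computed.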

Additional observations from a re-analysis of the deposited data

How the results depend on the processing

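Of the 10 genes, CYR61, CTGF, AXL, LATS2, AJUBA, YAP1 and WWTR1 kept their rise and their side of the threshold under all 13 alternatives, with adjusted p no higher than 0.0499 (CTGF without TAF1C replicate 1). AMOTL2 reversed without empty vector replicate 2, at 0.41 (-0.74 without replicate 1), and so did TEAD2, at 0.66 (-1.64 without replicate 1). With 1 library left out, the number of the 10 lowered ran from 0 to 1 (AMOTL2), conserved targets lowered from 0 to 2, Hippo genes raised from 9 to 24 and lowered from 2 to 11, all genes raised from 1058 to 5967 and lowered from 1960 to 5665. Without a filter 1817 genes (3.61%) were raised and 2 Hippo genes lowered (8.55% of all genes lowered), and with filterByExpr 3 Hippo genes were lowered (13.9%). The same-numbered libraries of the 2 groups deviated together by correlations of 0.0427 and 0.135, which does not show that the numbers pair them. With the replicate block, 1425 genes (7.74%) were raised and 2662 (14.5%) lowered, 7 of the 10 were raised (ANKRD1 at an adjusted p = 0.0755) and 2 Hippo genes were lowered. The causes were not tested. Scaling by library totals gave fewer raised and more lowered genes, 2269 and 5021 in place of 2922 and 4158. The least counted of the 10, ANKRD1, had 221 counts in its lowest library.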

Other observations

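A list of 20 actin cytoskeleton genes known as targets of SRF and its coactivators MRTF, another system that reads cell tension, was counted in the same way. Of these 19 were tested, 14 rose, 0 fell and 5 did not pass (edgeR adjusted p under 0.05), beside 15.9% raised and 22.6% lowered among all genes. The median log2 fold change of the list was 0.92. With 1 library left out, 11 to 18 rose, beside 5.84% to 35.8% of all genes, and 2 fell without empty vector replicate 1, beside 29.5%. TPM2, a tropomyosin, was at 255 and 269 CPM with the empty vector and at 1097, 1067 and 1119.7 CPM in the libraries labelled TAF1C, a 4.18-fold rise (edgeR adjusted p = 0.000601). ZYX, the focal adhesion protein zyxin, rose 3.91-fold (11.7 and 14.1 CPM, then 53.5, 42.6 and 55.1 CPM, adjusted p = 0.00122). TAGLN and MYL9, which bind or drive actin filaments, rose 2.82-fold and 2.80-fold (adjusted p = 0.000626 and 0.000701). Those that did not pass were ACTB, ACTG1, CNN2, CNN1 and SRF, and CNN1, the smooth muscle protein calponin, had a log2 difference of -1.14 (adjusted p = 0.166). SRF itself was at 59.9 and 113 CPM and at 91.5, 85.5 and 88.9 CPM (adjusted p = 0.934), and ACTA2, smooth muscle actin, was at 4.57 CPM in empty vector library 1 and under 1 CPM in the other 4, so it was not tested. The photoreceptor and neuronal markers given above lie along the same split, and their part in these values was not tested.

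Of the other 4 CCN family genes, which share their domain plan with CYR61 and CTGF, 2 were tested and neither passed. WISP1 was at 0.557 and 0.178 CPM and at 0.912, 1.09 and 1.24 CPM (edgeR adjusted p = 0.0837), and WISP2 at 6.99 and 6.15 CPM and at 3.88, 4.38 and 3.87 CPM (0.0649). NOV was under 1 CPM in every library, and WISP3 reached 1.52 CPM in empty vector library 1 alone.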
